A study of Mus musculus with 4 samples.

Results

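Cathepsins and other lysosomal peptidases are described here through 10 genes, Ctsb, Ctsh, Ctsl, Ctsd, Ctsa, Ctsz, Ctsc, Scpep1, Lgmn and Tpp1, which were chosen by name and each matched 1 row among 32227 genes. They were read in 4 single-cell RNA-seq libraries of intestinal epithelium from wild-type, untreated C57BL/6J mice at postnatal day 6 (P6), 2 from ileum and 2 from jejunum. One mouse gave ileum and jejunum of batch 1 and carries the label male, and another gave both segments of batch 2 and carries the label female, so that mouse, batch and sex label cannot be told apart. The epithelium was shaken off medial segments with EDTA, dissociated with dispase, and barcoded by PIPseq, an emulsion method that tags the 3′ ends of transcripts with unique molecular identifiers (UMIs). Levels are given in CPM, the UMIs of a gene scaled to a common total for each library and cell class. Each molecule counts once whatever its length, so levels of different genes can be set side by side on this scale.

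Lysosomal peptidases are made as inactive precursors, most of which reach the lysosome through mannose 6-phosphate receptors and are activated at its acid pH. Before weaning, when little protein is cut in the stomach, enterocytes of the distal small intestine take up milk protein by endocytosis and digest it in large lysosomal vacuoles. Endopeptidases open protein chains inside, and aminopeptidases and carboxypeptidases then trim the ends towards free amino acids and short peptides.

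The kept cells numbered 30521 of 36202 barcodes, from 5722 to 8997 a library, and total UMIs before filtering ran from 57951874 to 131400239 a library. Depth and mitochondrial share moved with region: the median kept cell held 12048 and 10916 UMIs in ileum against 4689 and 5884 in jejunum, with median mitochondrial shares of 3.61% and 3.74% against 6.37% and 9.94%. Xist stood at 537 and 467 CPM in the libraries labelled male and at 0.712 and 0.984 CPM in those labelled female, and the Y-linked gene Eif2s3y had the opposite pattern, so all 4 libraries went against their sex label. No result below uses that label. No pair of libraries shared more than 1 barcode. Clusters were named from marker genes, which gave 25361 enterocyte-like, 1510 stem/progenitor-like, 257 enteroendocrine-like, 151 immune-like and 23 goblet-like cells, the immune-like cells being led by lymphocyte genes. A further 3219 cells, 8.77 to 14.2% of a library, were left unnamed. In the enterocyte-like sums the 10 enterocyte markers, which named these cells, summed to 17427 and 20578 CPM in ileum and 42462 and 43785 CPM in jejunum. Of these sums the apolipoprotein gene Apoa4 alone gave 5940 and 6386 CPM in ileum and 16963 and 18593 CPM in jejunum.

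RefSeq start-site sequences (GRCm38.p6, a build other than the GRCm39 named in the submitters' processing notes) were at hand for 8 of the 10 genes. They were searched on both strands for the E-box CACGTG and for its longer forms TCACGTG and TCACGTGA, the letters at the centre of the motif of the lysosomal regulators TFEB and TFE3; each longer form contains the shorter. The E-box lay in the window of Ctsl, Ctsd, Ctsa and Lgmn, in 4 of the 10 windows of all 8 genes, against 7.15% of all 32851 windows in the table. TCACGTG was found for Ctsd, Ctsa and Lgmn against 3.77% of all windows, and TCACGTGA for Ctsd and Ctsa against 0.974%. The 3 windows with TCACGTG are shown because they hold the longer matches. Each covers 250 bases before to 50 bases after a start site, 5′ to 3′ on the gene's strand, with the E-box in capitals. Ctsd lies at chr7:142387778-142388077 on the minus strand, with matches that begin 245 and 98 bases before the start. Ctsa is shown at the downstream of its start sites, chr2:164833523-164833822 on the plus strand, with matches 12 bases before and 5 bases after the start. Lgmn is also shown at the downstream of its start sites, chr12:102439043-102439342 on the minus strand, with a match 49 bases before the start. The upstream windows of Ctsa and Lgmn held no match.
Ctsd: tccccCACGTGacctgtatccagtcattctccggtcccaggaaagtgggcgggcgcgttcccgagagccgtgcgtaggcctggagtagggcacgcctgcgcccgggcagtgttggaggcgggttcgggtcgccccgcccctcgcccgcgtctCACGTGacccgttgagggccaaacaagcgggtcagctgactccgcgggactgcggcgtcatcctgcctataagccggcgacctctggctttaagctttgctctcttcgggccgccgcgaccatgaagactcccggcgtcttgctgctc
Ctsa: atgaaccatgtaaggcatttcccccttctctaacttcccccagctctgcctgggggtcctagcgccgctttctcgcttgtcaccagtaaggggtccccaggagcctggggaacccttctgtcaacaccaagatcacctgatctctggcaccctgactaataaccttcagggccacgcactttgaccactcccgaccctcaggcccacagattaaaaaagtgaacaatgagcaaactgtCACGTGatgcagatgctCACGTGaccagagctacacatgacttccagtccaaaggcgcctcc
Lgmn: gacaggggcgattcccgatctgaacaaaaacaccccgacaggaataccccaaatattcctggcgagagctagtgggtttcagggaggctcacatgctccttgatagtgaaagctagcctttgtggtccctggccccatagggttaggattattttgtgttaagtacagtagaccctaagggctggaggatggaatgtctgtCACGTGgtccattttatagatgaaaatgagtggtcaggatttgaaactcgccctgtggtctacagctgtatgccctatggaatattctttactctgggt
A match describes these letters and is not evidence of binding.

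Together the 10 genes took 1.33% and 1.36% of all UMIs of enterocyte-like cells in the ileum of mice 1 and 2, and 1.03% and 0.851% in the jejunum. Lgmn was the highest on average, at 2648 ± 1409 CPM (SD, n = 4 libraries), followed by Ctsb at 1991 ± 487, Ctsl at 1871 ± 268, Ctsz at 1560 ± 174 and Ctsa at 1482 ± 217 CPM. These 5 exchanged ranks between libraries: Lgmn was highest in both ileum libraries and in the fifth place in the jejunum of mouse 2, Ctsb exceeded Ctsl in 2 of 4 libraries, and Ctsz exceeded Ctsa in 2 of 4. Ctsd at 702 ± 171 CPM and Tpp1 at 529 ± 161 CPM held the sixth and the seventh place in every library. Ctsh at 315 ± 86.5 and Scpep1 at 313 ± 93.0 CPM could not be ordered beyond their spread, and Ctsc was lowest throughout at 36.0 ± 7.11 CPM.

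**Figure D1:**
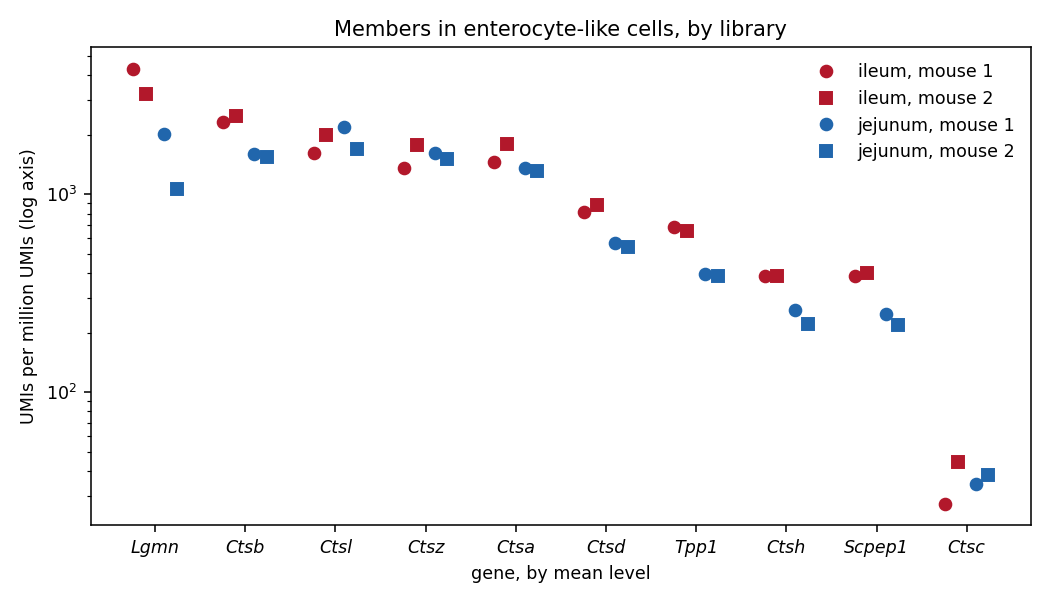
Level of each gene in enterocyte-like cells, in CPM on a log axis, with 1 point for each library (red ileum, blue jejunum; circles mouse 1, squares mouse 2). Lgmn ran from 1059 to 4297 CPM, and for Ctsl, Ctsz and Ctsc the regions overlapped.

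The first comparison asked which of these genes differ between ileum and jejunum in enterocyte-like cells. Of the 10, 7 had both ileum libraries above both jejunum libraries, against 38.3% of the 19507 genes tested, and the other 3 overlapped. By the quasi-likelihood test of edgeR, with p-values adjusted over all genes by Benjamini and Hochberg, 1 of 10 genes, Tpp1, was called at an adjusted p under 0.05, against 7.36% of all genes in either direction and 4.20% higher in ileum. DESeq2 called 6 of 10, against 10.8% of the 28620 genes with any UMI, a wider set than the 19507 above. With the mouse as a block, 5 of 10 were called (Tpp1, Lgmn, Scpep1, Ctsh and Ctsd), all higher in ileum, against 18.3% of all genes in either direction and 10.1% in that direction. The median log2 difference over the 10 genes was 0.49, beside -0.01 over all genes tested. With 2 mice the p-values rest on the spread between 2 libraries a region.

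Among the endopeptidases, Lgmn, the asparaginyl endopeptidase that also trims cathepsins B, H and L to their mature chains, had the widest gap. It stood at 4297 and 3214 CPM in ileum and at 2023 and 1059 CPM in jejunum of mice 1 and 2. Both ileum values lay above both jejunum values, with ratios of 2.12 and 3.04 within the mice. The log2 difference was 1.17 ± 0.31 (SE; adjusted p = 0.0767 by edgeR) and passed with the mouse as a block (1.22 ± 0.17, adjusted p = 0.00682 by edgeR). With 1 library left out it ran from 0.82 to 1.68 without the block. It was called only without the jejunum of mouse 1 (adjusted p = 0.0142 by edgeR) and not without any other library (adjusted p from 0.113 to 0.205 by edgeR).

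Ctsb, a cysteine peptidase that acts both inside chains and at their carboxyl end, stood at 2318 and 2497 CPM in ileum and at 1608 and 1542 CPM in jejunum. The regions did not overlap, the log2 difference was 0.49 ± 0.15, and the call was missed in both edgeR fits (adjusted p = 0.105, and 0.0528 with the block). Ctsd, the main aspartic peptidase of the lysosome, stood at 814 and 882 CPM in ileum and at 569 and 542 CPM in jejunum. It had the same size of difference, 0.49 ± 0.14 on the log2 scale, and passed only with the block (adjusted p = 0.0984, and 0.0456 with the block, by edgeR). Ctsl, a cysteine endopeptidase of broad specificity, went the other way in mouse 1 and not in mouse 2, at 1617 and 1988 CPM in ileum against 2191 and 1686 CPM in jejunum. Its regions overlapped, and the log2 difference was -0.22 ± 0.20 (adjusted p = 0.509 by edgeR).

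The enzymes that trim from the amino end differed among themselves. Tpp1, which removes tripeptides and is lost in a childhood neuronal ceroid lipofuscinosis, stood at 684 and 652 CPM in ileum and at 396 and 385 CPM in jejunum. The ileum was higher by 0.65 ± 0.13 on the log2 scale (adjusted p = 0.0443 by edgeR, and 0.0152 with the mouse as a block), with ratios of 1.73 and 1.69 in the mice. The call without the block was lost whichever 1 of the 4 libraries was left out (adjusted p from 0.102 to 0.171 by edgeR). Ctsh, a cysteine aminopeptidase, stood at 388 and 389 CPM in ileum and at 261 and 221 CPM in jejunum. The groups did not overlap, and the log2 difference of 0.57 ± 0.14 passed with the block only (adjusted p = 0.0653, and 0.0280 with the block, by edgeR). Ctsc, the dipeptidyl peptidase that activates granule proteases of immune cells, stood at 27.3 and 44.3 CPM in ileum and at 34.2 and 38.1 CPM in jejunum. Its regions overlapped (log2 difference -0.13 ± 0.27, adjusted p = 0.787 by edgeR).

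The carboxypeptidases also split. Scpep1, a serine carboxypeptidase, stood at 385 and 401 CPM in ileum and at 247 and 219 CPM in jejunum, with no overlap. Its log2 difference was 0.63 ± 0.14 (adjusted p = 0.0525, and 0.0204 with the block, by edgeR). Ctsa, a serine carboxypeptidase that also protects the sialidase Neu1 from breakdown, stood at 1457 and 1796 CPM in ileum and at 1359 and 1316 CPM in jejunum. These did not overlap, but the log2 difference of 0.17 ± 0.18 was no larger than its error (adjusted p = 0.574 by edgeR). Ctsz, a cysteine carboxypeptidase, stood at 1358 and 1769.8 CPM in ileum and at 1609.6 and 1503.5 CPM in jejunum, overlapping, with a log2 difference of -0.11 ± 0.19 (adjusted p = 0.744 by edgeR).

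Among the values that moved with region beside these results were depth, mitochondrial share and the enterocyte markers (above), Paneth markers, which summed to 18.3 and 15.4 CPM in ileum against 34.7 and 21.7 CPM in jejunum, and goblet markers, all 7 of them detected, which summed to 189 and 154 CPM in ileum against 67.2 and 57.8 CPM in jejunum in the enterocyte-like sums. Of the goblet markers Fcgbp alone gave 124 and 105 CPM in ileum and 26.6 and 18.2 CPM in jejunum. Tff3 gave 49.2 and 37.5 CPM in ileum and 31.0 and 28.2 CPM in jejunum. Muc2 and Spdef were higher in ileum too, Clca1 was lower there, and Agr2 and Zg16 overlapped. The 10 macrophage markers summed to 209 and 184 CPM in ileum and 197 and 226 CPM in jejunum, of which Csf1r alone gave 180 to 221 CPM. C1qa was at 0 in 3 libraries and reached 0.0119 CPM in the ileum of mouse 2, and Lyz2 did not pass 0.115 CPM. With cells of a mitochondrial share under 10% the same number, 1 of 10, was called, and with sums thinned to the smallest total 2 of 10. The part of goblet and Paneth RNA and of the enterocyte marker level in these differences was not tested.

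**Figure D2:**
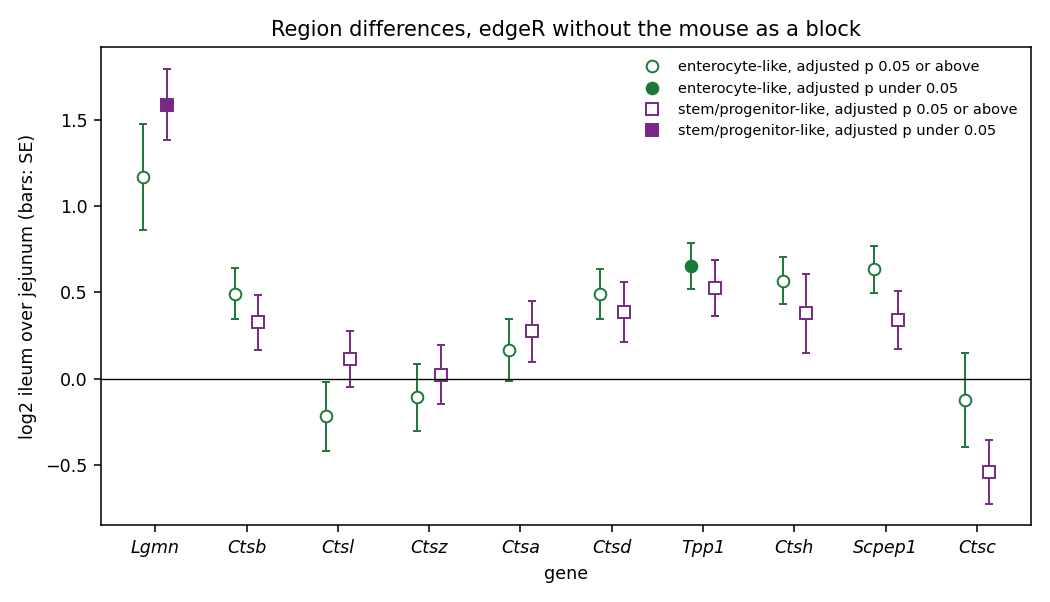
Log2 difference of ileum over jejunum for each gene with its standard error, from edgeR without the mouse as a block, in enterocyte-like (green circles) and stem/progenitor-like cells (purple squares); filled points have an adjusted p under 0.05. The filled points are Tpp1 at 0.65 in enterocyte-like and Lgmn at 1.59 in stem/progenitor-like cells.

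The same question was asked of stem/progenitor-like cells, the dividing and stem cells of the crypt. Lgmn stood at 377 and 415 CPM in ileum and at 160 and 95.9 CPM in jejunum, with no overlap. It rose by 1.59 ± 0.21 on the log2 scale in ileum (adjusted p = 0.00172 by edgeR) and was the only one of 10 called, against 1.83% of 12053 genes in either direction and 0.805% higher in ileum. DESeq2 also called 1 of 10, against 0.662% of the 23702 genes with any UMI, again a wider set. The call held under each alternative run, with log2 values from 1.26 to 2.00. With the block, Tpp1 (0.53 ± 0.14, adjusted p = 0.0333 by edgeR) and Ctsc were called too, 3 of 10 against 5.22% of all genes (2.47% higher and 2.75% lower in ileum). Ctsc was the only one of the 10 called lower, and only with the block: it stood at 45.8 and 52.7 CPM in ileum and at 60.9 and 77.5 CPM in jejunum, without overlap (-0.53 ± 0.15, adjusted p = 0.0466 with the block and 0.224 without, by edgeR). The median over the 10 genes was 0.33 on the log2 scale, beside 0.00 over all genes. Lgmn stood at 9.66% of its enterocyte-like level here. The enterocyte markers other than Treh spanned 5.88 to 44.6%, or 5.88 to 21.4% without Anpep and Vil1, and Lgmn lay inside both ranges. Its region difference had the direction seen in enterocyte-like cells. The part of enterocyte RNA in this difference was not tested. The enterocyte markers summed to 2317 and 2741 CPM in ileum and 4870.3 and 6209 CPM in jejunum in these sums, lower in ileum as in enterocyte-like cells. Apoa4, among these markers, itself had a log2 difference of -1.67 here (adjusted p = 0.000224 by edgeR), so the marker sum is no even measure of enterocyte RNA. When clusters were made without integrating the libraries, 6 of 10 were called, Lgmn among them.

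Whether the region difference itself differed between the classes was tested as an interaction. It was called by edgeR for 0 of 10 genes, against 8.73% of 18996 genes, and 1 of 10 had an unadjusted p under 0.05 against 21.9% of all genes; no other tool was run. That gene was Ctsc, whose ileum-over-jejunum difference was 0.41 ± 0.20 higher on the log2 scale in enterocyte-like cells (adjusted p = 0.222 by edgeR). For Lgmn the interaction was -0.36 ± 0.18 (adjusted p = 0.229 by edgeR), and it turned on single libraries. It was -0.63 without the ileum of mouse 1, where it passed (adjusted p = 0.0357 by edgeR), and -0.050 without the ileum of mouse 2 (adjusted p = 0.936 by edgeR).

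Across classes 9 of the 10 genes were lower in stem/progenitor-like than in enterocyte-like cells of the same library in all 4 libraries. Since the classes were made from the same cells these values are a description. Ctsl stood at 6.14 ± 0.712% of its enterocyte-like level (SD, n = 4 libraries), Lgmn at 9.66 ± 2.23%, Ctsh at 10.2 ± 2.11% and Ctsa at 10.6 ± 1.19%. Less steep were Tpp1 at 14.3 ± 1.71%, Ctsz at 15.3 ± 2.55%, Scpep1 at 18.3 ± 2.84%, Ctsd at 21.2 ± 3.19% and Ctsb at 23.4 ± 3.82%. Enterocyte markers spanned 5.88% (Alpi) to 44.6% (Vil1) of their enterocyte-like level in the same cells, leaving out Treh with its 30 UMIs. None of these 9 genes stood above Vil1 or Anpep (40.4%). The next marker was Mttp at 21.4%, which Ctsb exceeded and Ctsd nearly reached. How much of the level of these 9 genes in the crypt cells is RNA carried over from enterocytes was not tested. Ctsc was the exception, at 167 ± 35.5% of its enterocyte-like level, above 100% in each library (119 to 204%).

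In immune-like cells 9 genes stood at 26.8 to 68.6% of their enterocyte-like level on average. The enterocyte markers other than Treh spanned 28.2% (Alpi) to 94.4% (Anpep), and none of the 9 genes stood above Anpep. The next marker was Mttp at 53.68%. Ctsd at 68.6%, Tpp1 at 57.7%, Ctsb at 56.0% and, barely, Ctsz at 53.72% exceeded it, and the others of the 9 did not. The libraries overlapped, at 49.5 to 86.6% for Ctsd and 41.0 to 69.9% for Mttp. How much of these levels in immune-like cells is RNA carried over from enterocytes was not tested. Ctsc stood at 261% there, with 36.6 and 96.0 CPM in ileum and 103 and 149.8 CPM in jejunum from 95 UMIs in all. The 13 immune markers summed to 289 CPM in these cells in the ileum of mouse 1, against 1950 to 2958 CPM in the other libraries. The part of that difference in the Ctsc values was not tested. Immune-like cells held 0.595 to 1.29% of all Ctsc UMIs of a library, and 0.102 to 0.373% of the UMIs of the 10 genes together. In enteroendocrine-like cells, the hormone cells of the epithelium, all 10 genes were below their enterocyte-like level on average (19.5 to 46.4%), as were the markers. There the 10 genes took 0.617% and 0.413% of UMIs in ileum against 0.217% and 0.154% in jejunum. Goblet-like cells were too few for a level, with 23 cells over 4 libraries.

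**Figure D3:**
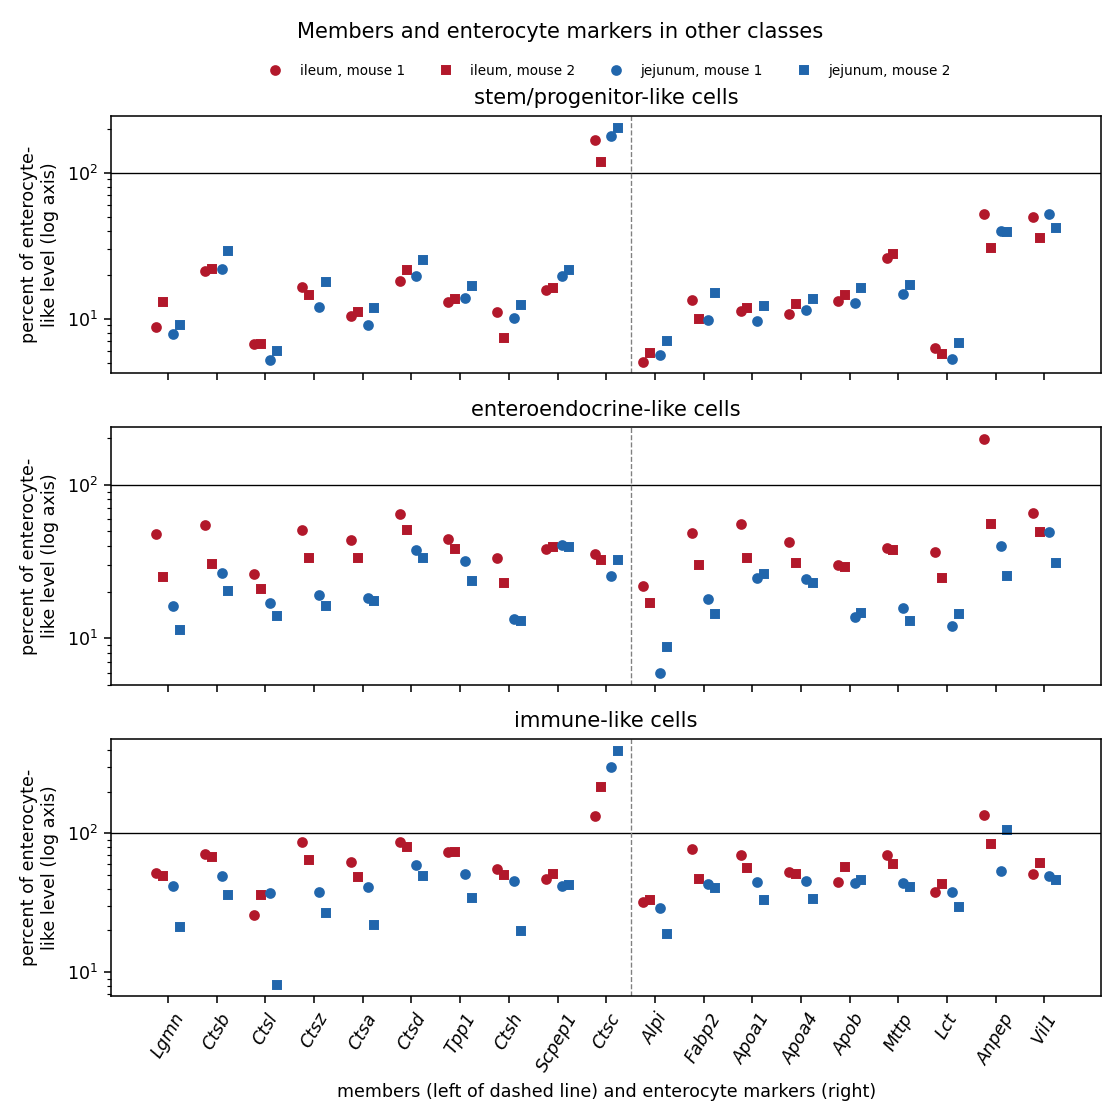
Level in stem/progenitor-like, enteroendocrine-like and immune-like cells as a percent of the enterocyte-like level of the same library, on a log axis, for the 10 genes and 9 enterocyte markers (Treh, with 30 UMIs or fewer in each class, is left out); the line marks 100%. Ctsc lies above 100% in all 4 libraries in stem/progenitor-like and immune-like cells, and the other 9 genes lie below it.

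Enterocyte-like cells fell into 15 clusters, of which 12 had at least 50 cells in every library while cluster 12 held 603 and 502 cells in ileum and 7 and 2 in jejunum. Ctsb, Ctsl and Lgmn were among the 2000 variable genes the clusters were built on, so their spread over clusters is a description. Over these 12 clusters the highest level of Lgmn was 12.6 to 35.3 times its lowest within a library, and that of Ctsl 13.0 to 21.2 times. Ctsb spanned 3.13 to 3.90 times, Ctsd 2.91 to 3.61 times and Ctsa 2.45 to 4.88 times. Scpep1 and Tpp1 were nearly flat, at 1.93 to 2.01 times and 1.80 to 2.02 times. The genes thus ranged from steep to flat over one set of cells: Lgmn was lowest in cluster 2 in 4 of 4 libraries, while Tpp1 changed by no more than about 2.02 times. Within a cluster, Lgmn, Ctsb, Ctsd, Scpep1 and Tpp1 were higher in ileum than in jejunum in both mice in 12 of 12 clusters, and Ctsh in 10 of 12. Ctsl was higher in ileum in both mice in 0 of 12 clusters and lower in both in 6. The clusters are parts of the same 4 libraries, so they do not repeat the comparison independently. No share over all genes was computed by cluster. In the sums over all enterocyte-like cells 38.3% of genes had both ileum libraries above both jejunum libraries.

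**Figure D4:**
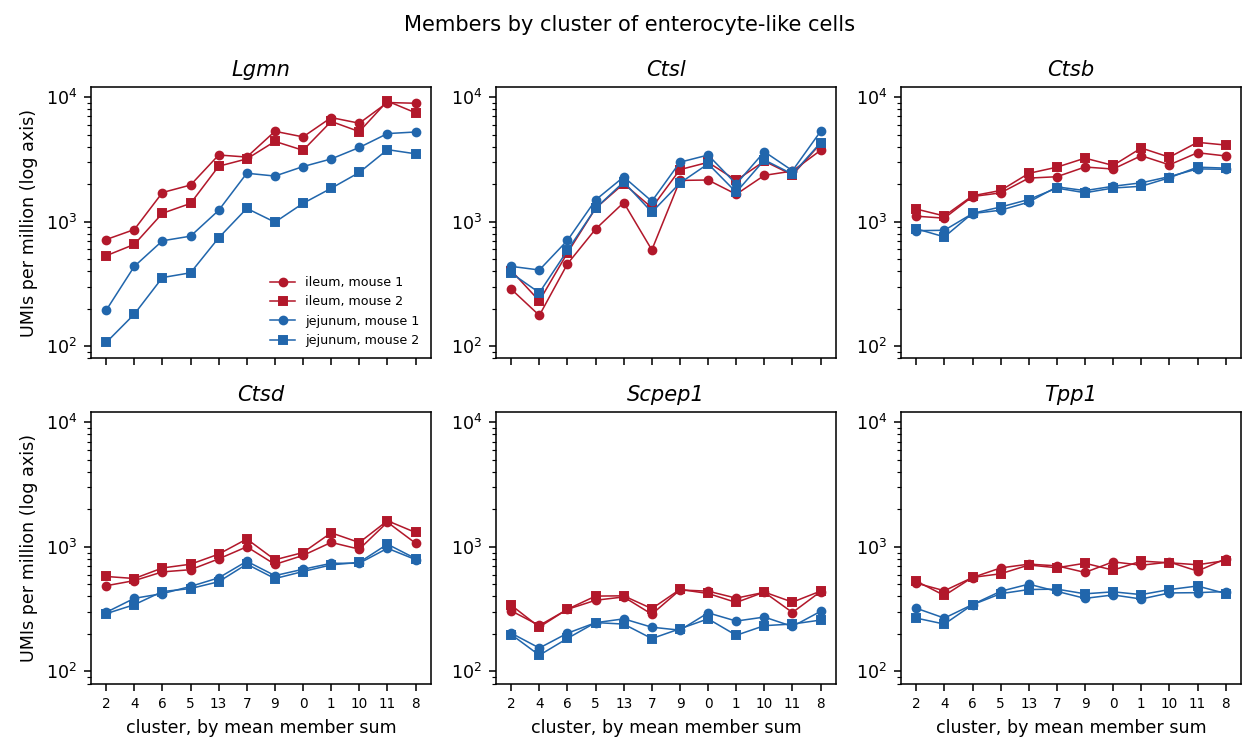
Level of 6 of the genes in CPM, on a log axis, in the 12 clusters with at least 50 cells in every library, ordered by the mean summed level of the 10 genes; lines join the clusters of 1 library. Lgmn and Ctsl rise over an order of magnitude from left to right, Ctsl not steadily. Both are large parts of the sum that orders the clusters, so their rise is in part set by that order. Scpep1 and Tpp1 stay within about 2.02 times. The ileum lines of Lgmn, Ctsb, Ctsd, Scpep1 and Tpp1 lie above the jejunum line of the same mouse throughout.

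Per cell, the genes were compared after thinning each enterocyte-like cell to 2000 UMIs, which left 4585 to 7076 cells a library and dropped 39 to 611. Cells of 1 library share its depth, free RNA and animal, and at a fixed total a rise in some genes lowers others, so the correlations are a description. At this depth a cell held a mean of 26.9 and 28.6 UMIs of the 10 genes in ileum and 22.7 and 18.1 in jejunum. The spread between cells was wide for Lgmn, whose variance was 4.27 to 6.56 times its mean, and for Ctsl (3.62 to 3.90 times). For Scpep1 it was 1.02 to 1.03 times the mean, close to the value of 1 that counting alone gives, and for Tpp1 1.04 to 1.09 times.

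Lgmn and Ctsl had the highest of the 45 pairwise correlations, a Spearman correlation of 0.63 as the mean over 4 libraries (0.57 to 0.69). Lgmn with Ctsb followed at 0.58 (0.50 to 0.66), Ctsb with Ctsl at 0.46 (0.40 to 0.51) and Ctsa with Lgmn at 0.43 (0.37 to 0.47). Ctsd with Lgmn was at 0.32 and Ctsz with Lgmn at 0.29. Ctsh, Tpp1, Scpep1 and Ctsc, with at most 1.31 UMIs per thinned cell on average, reached at most 0.12 in any pair, and in counts this sparse no absence of a relation can be read. The median over all pairs was 0.068 to 0.112 in the 4 libraries and rose with depth, to a mean of 0.15 at 4000 UMIs per cell against 0.087 at 2000.

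**Figure D5:**
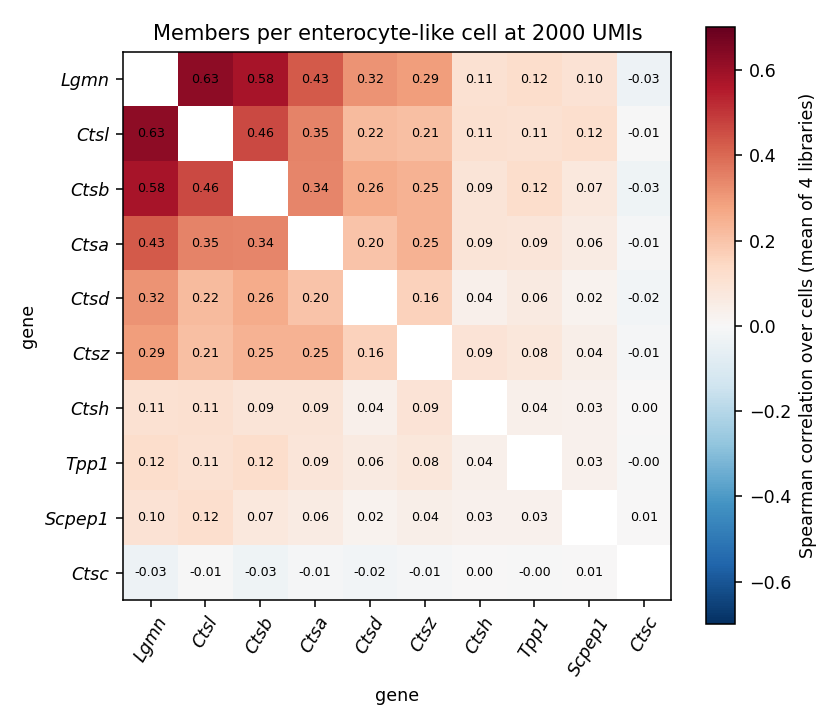
Spearman correlation of each pair of genes over enterocyte-like cells thinned to 2000 UMIs, as the mean over 4 libraries (red positive, blue negative). Lgmn, Ctsl, Ctsb and Ctsa form the block of the highest values, from 0.34 to 0.63, and Ctsc stands near 0 with all others.

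The summed UMIs of the 10 genes were then compared per cell with other gene lists at the same depth. Before thinning, Lgmn, Ctsb and Ctsl held 22.0, 17.4 and 16.9% of the UMIs of the 10 in enterocyte-like cells, as means over libraries. Tpp1 held 4.57%, Ctsh 2.72%, Scpep1 2.70% and Ctsc 0.327%. Here and for the single genes below, the sum thus describes the abundant genes far more than these 4. Lysosomal glycosidases had a Spearman correlation with them of 0.66 to 0.75 over the libraries, lysosome membrane genes 0.39 to 0.44, and the protein uptake receptors and adaptors (Cubn, Amn, Dab2, Lrp2) 0.24 to 0.27. Genes that sort lysosomal enzymes stood at 0.076 to 0.11 and ribosomal protein genes at -0.80 to -0.63. A list of villus tip genes stood at 0.47 to 0.74, but Apoa4, an apolipoprotein of fat absorption, supplied 95.7 to 98.9% of its UMIs. Without Apoa4 the remaining tip genes (Ada, Nt5e, Slc28a2, Krt20) stood at -0.14 to -0.02, so the relation of the full list is in the main one with Apoa4. In the upper tercile of cells by the list with Apoa4, Lgmn stood at 4.48 and 4.34 times its level in the lower tercile in ileum, and at 2.43 and 3.32 times in jejunum. The ratio was 5.47 and 3.32 for Ctsl in ileum, with 1.65 and 2.01 in jejunum, 1.01 to 1.28 for Scpep1 and 0.714 to 0.859 for Ctsc. Without Apoa4 the ratio for Lgmn was 0.963 and 0.789 in ileum and 0.980 and 0.768 in jejunum. There the lower tercile held a mean of 0 UMIs of the remaining tip genes per thinned cell and the upper tercile 1.22 to 1.46. In counts this sparse no absence of a relation with the villus tip can be read.

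Among 1675 other genes with at least 0.2 UMIs per thinned cell in every library, the genes most like the sum of the 10 included Gpx3 (mean Spearman correlation 0.77, range 0.75 to 0.79), a secreted glutathione peroxidase, and Apoa4 (0.60), Clca4b (0.59), Fcgrt (0.57), Apoc2 (0.57), Apoa1 (0.57) and Ace (0.49). Fcgrt encodes the neonatal receptor that carries milk antibodies, Apoc2 and Apoa1 are apolipoproteins, and Ace is a brush border peptidase. The median over the 1675 genes was -0.01 and 95% of them lay below 0.20.

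Other genes of the pathway were counted from lists, in enterocyte-like cells unless stated and by edgeR; each list is to be read beside all genes, of which 4.20% were called higher in ileum (10.1% with the block) and 7.36% in either direction, with a median log2 difference of -0.01. Of the other lysosomal peptidases, 8 of 11 were tested and 2 rose in ileum. Dpp7, a dipeptidyl peptidase, stood at 382 and 364 CPM in ileum and at 178 and 156 CPM in jejunum (log2 difference 1.04 ± 0.13, adjusted p = 0.0203), and the less abundant Ctsf rose too. Ctss, a cysteine cathepsin best known from antigen-presenting cells, stood at 402 and 263 CPM in ileum and at 262 and 233 CPM in jejunum and did not pass (0.30 ± 0.20, adjusted p = 0.374 by edgeR). Cpq, at 126 to 133 CPM over the libraries, and Prcp, at 105 to 145 CPM, did not pass either. The median over the list was 0.13.

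Of the cystatins, inhibitors of cysteine cathepsins, 3 of 7 were tested and their directions differed. Cst3, the secreted cystatin C and likewise an inhibitor of both, rose in ileum, from 53.6 and 52.8 CPM in jejunum to 95.9 and 86.7 CPM (log2 difference 0.65 ± 0.13, adjusted p = 0.0424 by edgeR). Cst6, a cystatin that can inhibit legumain as well as cathepsins, fell in ileum, at 284 and 382 CPM against 631 and 637 CPM in jejunum (-1.04 ± 0.20, adjusted p = 0.0417 by edgeR). In stem/progenitor-like cells Cst6 fell as well (-1.34, adjusted p = 0.0314 by edgeR). Cstb, the intracellular stefin B, stood at 975 and 1028 CPM in ileum and at 941 and 645 CPM in jejunum and did not pass (0.22 ± 0.20, adjusted p = 0.492 by edgeR).

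Of 10 genes that sort lysosomal enzymes, 2 rose in ileum, with a median of 0.52, and with the block 5 rose and 1, Scarb2, fell (-0.75, adjusted p = 0.0204 by edgeR). Scarb2, a sorting receptor that also sits in the lysosome membrane, fell too in stem/progenitor-like cells (-0.83, adjusted p = 0.0403 by edgeR). Igf2r, the larger mannose 6-phosphate receptor, rose from 220.2 and 219 CPM in jejunum to 402 and 348 CPM (log2 difference 0.65 ± 0.13, adjusted p = 0.0471 by edgeR), and Sort1 rose too. Gga2, M6pr and Gga1 had log2 differences of 0.44, 0.39 and 0.07 and did not pass. Of 8 regulators of lysosomal genes 0 were called by edgeR in enterocyte-like cells, with 0 at an unadjusted p under 0.05 and 0 by DESeq2. In the interaction fit 1 of the 8, Tfeb, was called, with a larger ileum-over-jejunum difference in enterocyte-like than in stem/progenitor-like cells. Tfec, the most abundant of them and a relative of Tfeb, stood at 540.2 and 647 CPM in ileum and at 539 and 519.6 CPM in jejunum.

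Of 18 glycosidase genes tested, which cut sugar chains in the lysosome, 7 rose in ileum and 0 fell, with a median of 0.50 (10 rose with the block). Hexa, Galns, Gaa, Gla, Naglu and Ids were among the 7. The abundant Neu1 (0.16) and Fuca1 (0.25 on the log2 scale) were not. Of 17 lysosome membrane genes 5 rose and 0 fell, with a median of 0.31. Cd63, a tetraspanin of late endosomes, rose from 564 and 514 CPM in jejunum to 1123 and 965 CPM (0.83 ± 0.14, adjusted p = 0.0302 by edgeR), while Lamp1 stood at -0.04. The other 4 that rose were Npc2, Laptm4b, Npc1 and Cd68, the last also used as a macrophage marker. Dab2 and Lrp2 rose among the 4 genes for protein uptake, Dab2 from 446 and 333 CPM in jejunum to 863 and 712 CPM (0.89 ± 0.18, adjusted p = 0.0433 by edgeR). Lrp2, the endocytic receptor megalin, stood at 47.7 and 30.1 CPM in ileum and at 6.36 and 1.72 CPM in jejunum (3.14 ± 0.58, adjusted p = 0.0367 by edgeR). Cubn, its partner cubilin, stood at 425 and 412 CPM against 253 and 178 CPM (0.84 ± 0.18, adjusted p = 0.0514 by edgeR, and 0.0137 with the block), and its anchor Amn did not pass. Of 11 brush border peptidases 1 rose (Mep1a, 0.72) and 3 fell (Ace, -1.12, with Mme and Ggt1), with a median of -0.17. For glycosidases and lysosome membrane genes 0 were called in stem/progenitor-like cells by edgeR without the block or by DESeq2, with 5 and 2 at an unadjusted p under 0.05, and 4 and 1 were called higher in ileum by edgeR with the block. A call in 1 class only is no test of a difference between classes. In the interaction fit 6 of 17 lysosome membrane genes had a larger ileum-over-jejunum difference in enterocyte-like cells and 0 a smaller one. Of 18 glycosidases 1 was larger and 1 smaller, and over all genes 8.73% were called in either direction. Of 10 sorting genes 4 were larger (Gnptab, Igf2r, Sort1 and M6pr) and 0 smaller. From the cystatin, regulator, uptake, brush border and villus tip lists, Cst3, Tfeb and Lrp2 were larger and Mme and Krt20 smaller.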

How the data were processed

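The deposited files hold whole-number UMI counts per gene and cell barcode, which the authors made with PIPseeker (sensitivity level 3) and did not normalize. The submitters' processing notes name GRCm39. Barcodes were retained when they held more than 1000 and less than 6000 genes with less than 20% mitochondrial UMIs, after dropping genes seen in fewer than 3 cells of a library; this stated filter left 30521 of 36202 barcodes, the number of cells the study gives. Seurat 5.3.0 (2000 variable genes, 30 components, CCA integration, resolution 1) gave 22 clusters. A cluster was named from at least 3 markers, for enterocyte-like cells each in at least 50% of cells, and from no leading genes of another class. These thresholds were set after the data were seen. Scrublet called 1 or 2 doublets a library, so it did not work here, and none were removed. Instead the highest 6% of scores were left out as an alternative.

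Counts were summed per library and class and tested with edgeR 4.0.16 (filterByExpr, TMM, quasi-likelihood test, Benjamini-Hochberg adjustment over all genes, threshold 0.05), with region as the only term. A fit on region with the mouse as a block was run as an alternative. The pairing comes from the labels and the design text, by which both segments of a number are of 1 mouse, and the differences between the mice correlated at 0.28 (19507 genes, enterocyte-like) and 0.25 (12053 genes, stem/progenitor-like) across regions. The interaction of region and class was fitted over the sums of both classes with the library as a block. DESeq2 1.42.0 was a further alternative. CPM by totals exceeds the TMM scale by a median of 0.09 on the log2 scale for ileum over jejunum in enterocyte-like cells. On simulated counts for the real genes, 1-unit log2 changes were recovered in 19% (enterocyte-like) and 42% (stem/progenitor-like) of cases and 2-unit changes in 93% and 98%. Unchanged genes called numbered 6 and 2. All genes were drawn with a common dispersion, so these shares are not the recovery for the 10 genes themselves. All 10 genes and all lists were chosen with earlier results of these data known. From each list at most the 4 most abundant genes were named with values, with other called genes in a clause; the 8 genes most like the sum were taken by per-cell Spearman correlation. Some genes that this rule names are not reported here. Promoter letters are from RefSeq.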

Additional observations from a re-analysis of the deposited data

Results flagged for a closer look

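Ctsc moved one way with region in some classes and the opposite way in others, in both mice each. In enteroendocrine-like cells the ileum mean was 1.14 times the jejunum mean, from 12 UMIs in all, while it was 0.712 times in stem/progenitor-like cells (612 UMIs) and 0.525 times in immune-like cells (95 UMIs). The immune-like cells in the ileum of mouse 1 held less of the immune markers than those of the other libraries (above). These differences between classes were not tested, and 12 UMIs do not carry a direction.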

How the results depend on the processing

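In enterocyte-like cells 1 of 10 genes was called, and 5 with the mouse as a block (paired fit), 6 by DESeq2, 2 with thinned sums, 3 with clusters made without integration, 3 over all kept cells and 0 without a count filter, a fit that called 1 of 28620 genes; the cause was not tested. Leaving out 1 library gave 0 to 1. Over all genes 1435 were called, 3565 with the block, 3085 by DESeq2 and 176 to 1442 with 1 library left out. In stem/progenitor-like cells 1 was called, 3 with the block, 6 without integration and 1 whichever library was left out, and over all genes 220, 629, 373 and 123 to 389, and 587 without a count filter. The interaction gave 0 to 1 with 1 library left out, and over all genes 1659, or 948 with sums of equal size and 1074 to 1651 with 1 library left out. Directions turned for 5 values outside the left-out libraries, none of them called: Ctsz in enterocyte-like cells over all kept cells (0.030), Ctsz in stem/progenitor-like cells without a count filter (-0.020), the interactions of Ctsh (-0.026) and Tpp1 (-0.013) with clusters made without the 10 genes, and, chosen after seeing the data, the mean correlation with villus tip genes without Apoa4 (-0.075, against 0.60 with it). With 1 library left out, log2 values ran from -0.045 to 0.35 for Ctsa, -0.36 to 0.11 for Ctsz and -0.57 to 0.22 for Ctsc in enterocyte-like cells, from -0.055 to 0.27 for Ctsl and -0.20 to 0.27 for Ctsz in stem/progenitor-like cells, and from -0.20 to 0.079 for Ctsa and -0.33 to 0.13 for Ctsz in the interaction, none of them called. The mean of the median pair correlations was 0.087, 0.15 at 4000 UMIs and 0.19 without thinning.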
